A study of Mus musculus with 4 samples.

Results

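Translation factors and aminoacyl-tRNA synthetases are the soluble machinery of protein synthesis, and H3K9ac, the acetylated form of lysine 9 on histone H3 that is found at active genes, was compared at their genes in 2 libraries of leukaemic mouse bone marrow. The genes were taken by symbol from the autosomal rows of the deposited table, as those beginning Eif or Eef with a digit, the release factor genes Etf1 and Gspt1, and the synthetase symbols ending in ars, ars2 or prs. This gave 93 of the 9615 genes of the table. By role they comprised 44 genes with initiation factor symbols, 7 regulators of initiation and elongation, 8 elongation and release factor genes, 17 cytosolic synthetase genes and 17 mitochondrial synthetase genes. The symbols do not all fit the name of the set. Eif2c1, Eif2c2, Eif2c3 and Eif2c4 are older symbols of the Argonaute genes, which encode small RNA binding proteins and not initiation factors, and they are described apart. Eef1e1 is counted by its symbol among the 8 elongation and release factor genes, but it encodes a scaffold protein of a complex of synthetases. Of 109 autosomal protein-coding genes of these families in a RefSeq table of GRCm38.p6, 93 had a row, and the other 16, among them Wars, Eef1a2, Eif5a2 and Eif4enif1, were not analysed here.

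The tested marrow came from mice that carry floxed Gfi1b alleles, the NUP98-HOXD13 transgene and Mx-Cre (Gfi1b fl/fl with Nup98 tg and MxCre tg, called tg), and the marrow it was set against from mice with the same floxed alleles and leukaemia transgene but no Mx-Cre (Gfi1b fl/fl with Nup98 tg and MxCre wt, called WT). NUP98-HOXD13 is a fusion gene of myeloid leukaemia, GFI1B is a transcriptional repressor of erythroid and megakaryocytic cells, and Mx-Cre is a Cre recombinase under an interferon-inducible promoter that also acts outside the blood. Both libraries therefore come from leukaemia-prone animals, and the labels give neither their age nor how many contributed to a library. There was 1 library per group, so no difference below has a replicate check and no p-value is given. The IgG control libraries of the series were not analysed here.

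The scaling of the deposited values corresponds to totals of 163712 reads for tg and 309649 for WT, so that equal levels appear as 1.89 WT reads for each tg read. These totals were inferred from the values and are not stated sequencing depths. Reads recovered over 9491 genes, with shared probes counted more than once, sum to 163657 and 315138. Ratios are thus relative to the table as a whole, which the scaling itself places near equality. Values called scaled reads are the deposited values taken out of the log, in reads scaled to 1000000 per library. For a gene with several probes they are the geometric mean over its probes and not its summed reads. The log2 ratio is the difference of the authors' deposited log2 values, tg minus WT. Counts of genes at least 2-fold higher or lower rest on the log2 ratio, by which 16.5% of all genes were higher and 15.8% lower. Folds of single genes rest instead on the total reads of a gene over its probes, the regions counted by the authors. They carry exact conditional binomial 95% intervals that cover counting error only. Where a gene has several probes, their reads are listed by size within each library, since the deposited means and SDs do not tell which probe is which between libraries. The 2 libraries differed in their makeup. Of 13 erythroid marker genes with a row (of 18 listed), 12 stood 2-fold or more above WT in tg and 0 below, on 477 summed reads in tg and 164 in WT, with single genes at 54.7 to 324 scaled reads in tg and 2.91 to 265 in WT. Alas2, Epor and Rhag had 0 reads in WT. No 1-probe gene of the table held fewer than 9 reads over both libraries. A 1-probe gene with 0 reads in 1 library thus has a row only through the other, and can only appear as different. Of 4 neutrophil markers with a row (of 12 listed), 4 were at least 2-fold lower, on 7 reads in tg and 85 in WT (5.79 to 12.2 and 38.6 to 48.8 scaled reads). Of 5 monocyte markers (of 9 listed), 2 were lower and 1 was higher, on 63 and 524 reads, with single genes at 6.11 to 55.0 scaled reads in tg and 12.9 to 136 in WT. The listed marker Spi1 has a row under its older symbol Sfpi1 and was not counted. Its log2 ratio was -2.26. Of the few markers of other lineages with a row, 0 of 2 B cell genes (7 listed) were beyond 2-fold, 1 of 3 T and NK cell genes (6 listed) was higher and 1 of 2 megakaryocyte genes (7 listed) was lower. The part of these differences in any result below was not tested, and in whole marrow a change in the number of cells of a type cannot be told apart from a change in acetylation per cell. Gfi1b itself held 108 reads in tg and 12 in WT. The Y-linked genes Uty and Ddx3y held 0 and 1 reads in tg and 28 and 22 in WT. The part of the animals' sex in the values was not tested. With 1 library per group it cannot be told apart from genotype.

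Translation starts when eIF2 brings the initiator tRNA to the small ribosomal subunit, where eIF1, eIF1A, eIF3 and eIF5 hold it during the search for the start codon, while the eIF4 factors recruit the capped mRNA. The elongation factors eEF1 and eEF2 then deliver charged tRNAs and move the ribosome along, eRF1 and eRF3 end the chain, and the synthetases charge each tRNA with its amino acid. Phosphorylation of eIF2 by 4 kinases slows initiation under stress, and in red cell precursors the kinase HRI ties globin synthesis to the supply of haem. Genes of this machinery are active in every growing cell, and their promoters are commonly rich in CpG.

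As a set, the genes of protein synthesis were centred near equality and spread less than the table. The median log2 ratio over the 93 genes was 0.11, beside 0.05 over all 9615 genes, and the SD over genes was 0.90 beside 1.27. At least 2-fold higher in tg were 12 of the 93 genes (12.9%), where 16.5% of all genes were, and at least 2-fold lower were 8 (8.60%), where 15.8% were. The 12 higher genes were Lars2, Eef2k, Eef1d, Eif2ak1, Eif6, Eif2d, Hars, Eif3g, Eif3b, Tars2, Eef1b2 and Lars. The 8 lower ones were Eif4e3, Eif1, Eif2ak2, Eif2c4, Eif2ak4, Eif4a1, Eif5 and Mars2. By summed reads 10 genes were at least 2-fold higher, without Eif3b and Hars, and 8 lower. With reads recovered at every one of the 93 genes, the counting interval lay above 1 at 11 genes (11.8%), beside 12.8% of all genes, and below 1 at 9 genes (9.68%), beside 12.7%. Neither share of called genes exceeded the background of the table.

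Depth differed among these genes and with it the precision. Single genes held 2 to 57 reads in tg and 5 to 125 in WT, with medians of 16 and 28. The mean level over both libraries reached the median of all genes (62.1 scaled reads) at 58 of the 93. Among these 58, 3 were at least 2-fold higher and 4 lower, beside 10.2% and 10.8% of all genes at that level. Among the 35 genes below it 9 were higher (25.7%) and 4 lower (11.4%), beside 22.8% and 20.9% of all genes below it. In the upper quartile of level (at least 103 scaled reads) stood 30 of the 93, with a median log2 ratio of -0.03 (-0.02 for all genes in that quartile), 1 gene higher and 3 lower, beside 5.65% and 8.6% of all genes there. Of the 20 genes beyond 2-fold 13 (65%) lay below the median level, as did 67.4% of all genes beyond 2-fold. Because probe lengths are not given, levels are compared between libraries at the same gene and not between genes.

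**Figure D1:**
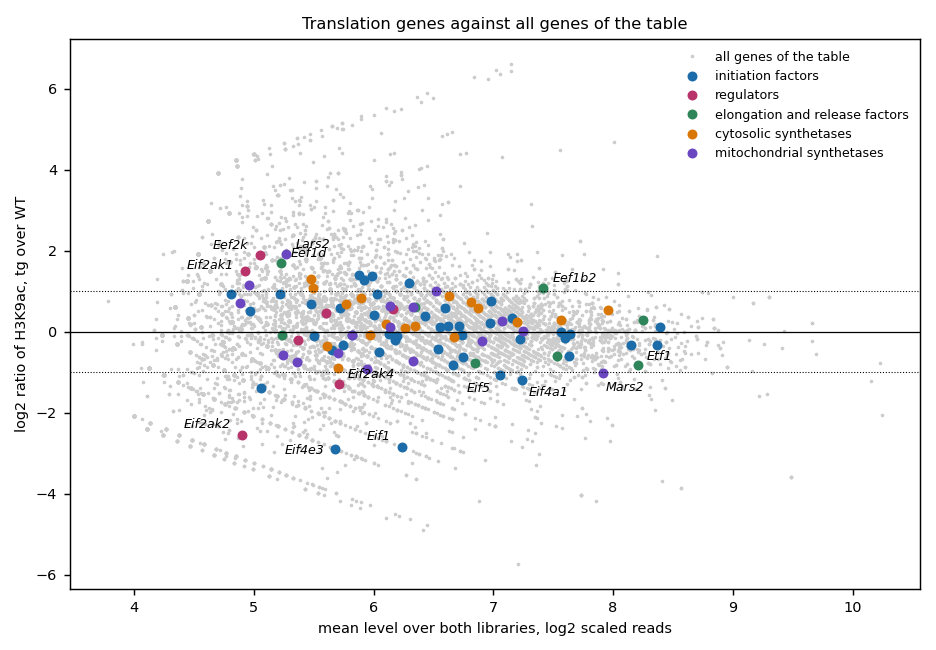
Log2 ratio of H3K9ac (tg over WT) against the mean level over both libraries in log2 scaled reads, for the 93 genes coloured by role and all 9615 genes in grey, with dotted lines at 2-fold. The 3 lowest coloured points are Eif4e3 (-2.89), Eif1 (-2.85) and Eif2ak2 (-2.56), and the highest are Lars2 (1.92) and Eef2k (1.90).

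Initiation factors were balanced as a group, with 4 of the 44 genes (9.09%) at least 2-fold higher and 5 (11.4%) lower. Over all genes 16.5% were higher and 15.8% lower. The median log2 ratio of the group was -0.06. Without the 4 Argonaute genes, 4 were higher and 4 lower (median -0.03). Among initiation genes at or above the median level, the largest difference was at Eif1 (ENSMUSG00000035530, chromosome 11, 100319885 to 100322096). This gene encodes the factor that keeps the scanning ribosome from starting at the wrong codon. Eif1 held 3 reads in tg and 41 in WT, 18.3 and 132 scaled reads, and was 7.23-fold lower (2.31 to 36.5). Its paralogue Eif1b stood close to equality, with 22 reads in tg and 36 in WT (log2 ratio 0.21). Eif1a, the gene of a partner of eIF1 on the small subunit, had 30 and 63 reads (-0.15), and its single probe had the same values as that of the neighbouring gene Tmed7.

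The RefSeq promoter of Eif1 (GRCm38.p6, chr11:100319699-100319998, plus strand, 250 bases before to 50 after the annotated start) is shown because this gene had the largest difference among genes at or above the median level. None of the motifs searched below occurs in it, so it is in lower case throughout, and its GC content is 66.3%.
Eif1: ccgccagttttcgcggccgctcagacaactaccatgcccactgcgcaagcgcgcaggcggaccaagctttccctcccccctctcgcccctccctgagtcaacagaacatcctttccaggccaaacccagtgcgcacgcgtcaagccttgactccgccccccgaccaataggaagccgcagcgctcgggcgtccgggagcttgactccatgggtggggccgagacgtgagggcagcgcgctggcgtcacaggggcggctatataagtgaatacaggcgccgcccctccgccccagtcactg

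Other steps of start site selection differed less. Eif5, the gene of the factor that triggers GTP hydrolysis by eIF2, held 14 reads in tg and 56 in WT and was 2.11-fold lower (1.16 to 4.11). Eif5b, which serves subunit joining, had 16 and 23 reads (log2 ratio 0.40), with an interval that includes 1. Eif5a, whose hypusine-bearing protein helps the ribosome through stretches of proline, had 2 probes with 8 and 24 reads in tg and 21 and 78 in WT. Its summed reads were 1.64-fold lower (1.09 to 2.52). Of the 5 genes of this step (Eif1, Eif1a, Eif1b, Eif5 and Eif5b), 2 were lower, 0 higher and 3 within 2-fold. Over all genes 15.8% were lower and 16.5% higher.

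The genes of eIF2 and of its exchange factor eIF2B were within 2-fold, with intervals that include 1. Beyond 2-fold were 32.3% of all genes. Median log2 ratios were 0.46 for the 2 eIF2 genes and 0.42 for eIF2B, beside 0.05 over all genes. Eif2s1 and Eif2s2, of the alpha and beta subunits, had log2 ratios of 0.59 and 0.33 on 31 and 26 reads in tg and 39 reads each in WT. All 5 eIF2B genes were within 2-fold, from -0.08 for Eif2b5 to 0.92 for Eif2b2, which had 6 reads in each library. Eif2d, which encodes a factor that delivers tRNA without GTP, was 2.58-fold higher on 15 reads in tg and 11 in WT (1.11 to 6.21). Eif2a, of a similar alternative factor, had 23 and 49 reads (-0.17), with the same values as its neighbour Serp1. Eif6, of the factor that keeps the ribosomal subunits apart, was 2.65-fold higher on 14 and 10 reads (1.09 to 6.66). The lower bounds for Eif2d and Eif6 lie just above 1.

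All 13 subunits of eIF3, the scaffold of the initiation complex, had a row. At least 2-fold higher in tg were 2 of them (15.4%) and 0 were lower, beside 16.5% and 15.8% of all genes. Their median log2 ratio was 0.15, from -0.50 for Eif3h to 1.27 for Eif3g. Eif3g held 14 reads in tg and 11 in WT and was 2.41-fold higher (1.02 to 5.86). Eif3b had 10 and 32 reads at its probes in tg and 6 and 36 in WT. Its deposited log2 ratio of 1.20 gives both probes equal weight, whereas its summed reads, 42 in each library, were 1.89-fold higher (1.20 to 2.97). The best covered subunit, Eif3a, had 48 and 114 reads (log2 ratio -0.33), and Eif3d, with 31 and 59 reads, had a log2 ratio of -0.01. Eif3f had 17 and 34 reads (-0.08). Values of the subunits thus lay on both sides of equality, and 11 of the 13 intervals include 1, as do 7072 of 9491 over all genes.

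The eIF4 factors bind the cap and unwind the leader of the mRNA. Of 10 such genes, 0 were at least 2-fold higher and 2 (20.0%) were lower, beside 16.5% and 15.8% of all genes. Of the 10 intervals 8 include 1, as do 7072 of 9491 over all genes. Their median log2 ratio was -0.23. Eif4e3 (ENSMUSG00000093661, chromosome 6, 99625135 to 99666771), of a cap-binding protein that differs from eIF4E in its contact with the cap, held 2 reads in tg and 28 in WT and was 7.40-fold lower (1.87 to 64.1). The main cap-binding gene Eif4e, on 23 and 52 reads, had a log2 ratio of -0.12, and Eif4e2, a repressor of translation, had 26 and 74 reads and -0.59. Among the 3 cap-binding genes only the interval of Eif4e3 excludes 1, but the difference between them was not tested.

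The helicase paralogues also differed in their values. Eif4a1 (chromosome 11, 69666936 to 69672423) held 15 reads in tg and 65 in WT and was 2.29-fold lower (1.29 to 4.33). Eif4a2, with 57 and 100 reads, had a ratio of 1.08 (0.765 to 1.51). The 2 intervals overlap only between 0.765 and 0.774. The single probe of Eif4a2 has the same values as that of Snord2, a small RNA gene within it. The scaffold gene Eif4g1 had 26 and 29 reads (log2 ratio 0.76), its paralogue Eif4g3 12 and 40 (-0.82), and Eif4g2, which acts without the cap-binding protein, 41 and 98 (-0.34). Each of their intervals includes 1. Eif4b and Eif4h, which assist the helicase, had log2 ratios of 0.14 and -0.06. Eif4a3, a helicase of the exon junction complex on spliced mRNA, had 2 and 30 reads at its probes in tg and 7 and 49 in WT, with a summed ratio of 1.08 (0.677 to 1.70).

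The promoter of Eif4a1 (GRCm38.p6, chr11:69672374-69672673, minus strand) is shown as that of the best covered initiation gene beyond 2-fold. Capitals mark the E-box CACGTG, the letters bound by MYC and USF factors, which begins 189 bases before the annotated start.
Eif4a1: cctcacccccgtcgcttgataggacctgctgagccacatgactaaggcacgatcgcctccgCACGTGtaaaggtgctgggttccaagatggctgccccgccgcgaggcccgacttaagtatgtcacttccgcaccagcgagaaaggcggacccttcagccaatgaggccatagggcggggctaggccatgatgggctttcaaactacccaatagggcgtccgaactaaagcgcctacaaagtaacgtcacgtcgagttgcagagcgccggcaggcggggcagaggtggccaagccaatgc

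Of the 4 Argonaute genes taken in by their older symbols, 1 was beyond 2-fold, beside 32.3% of all genes. Eif2c4 had 3 reads in tg and 15 in WT (2.64-fold lower, 0.748 to 14.2), and its interval includes 1. Eif2c1 had 7 and 18 reads, Eif2c3 16 and 28, and the 4 probes of Eif2c2 summed to 57 and 90. Eif2c1, Eif2c3 and Eif2c4 lie side by side on chromosome 4, between 126331704 and 126533472.

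**Figure D2:**
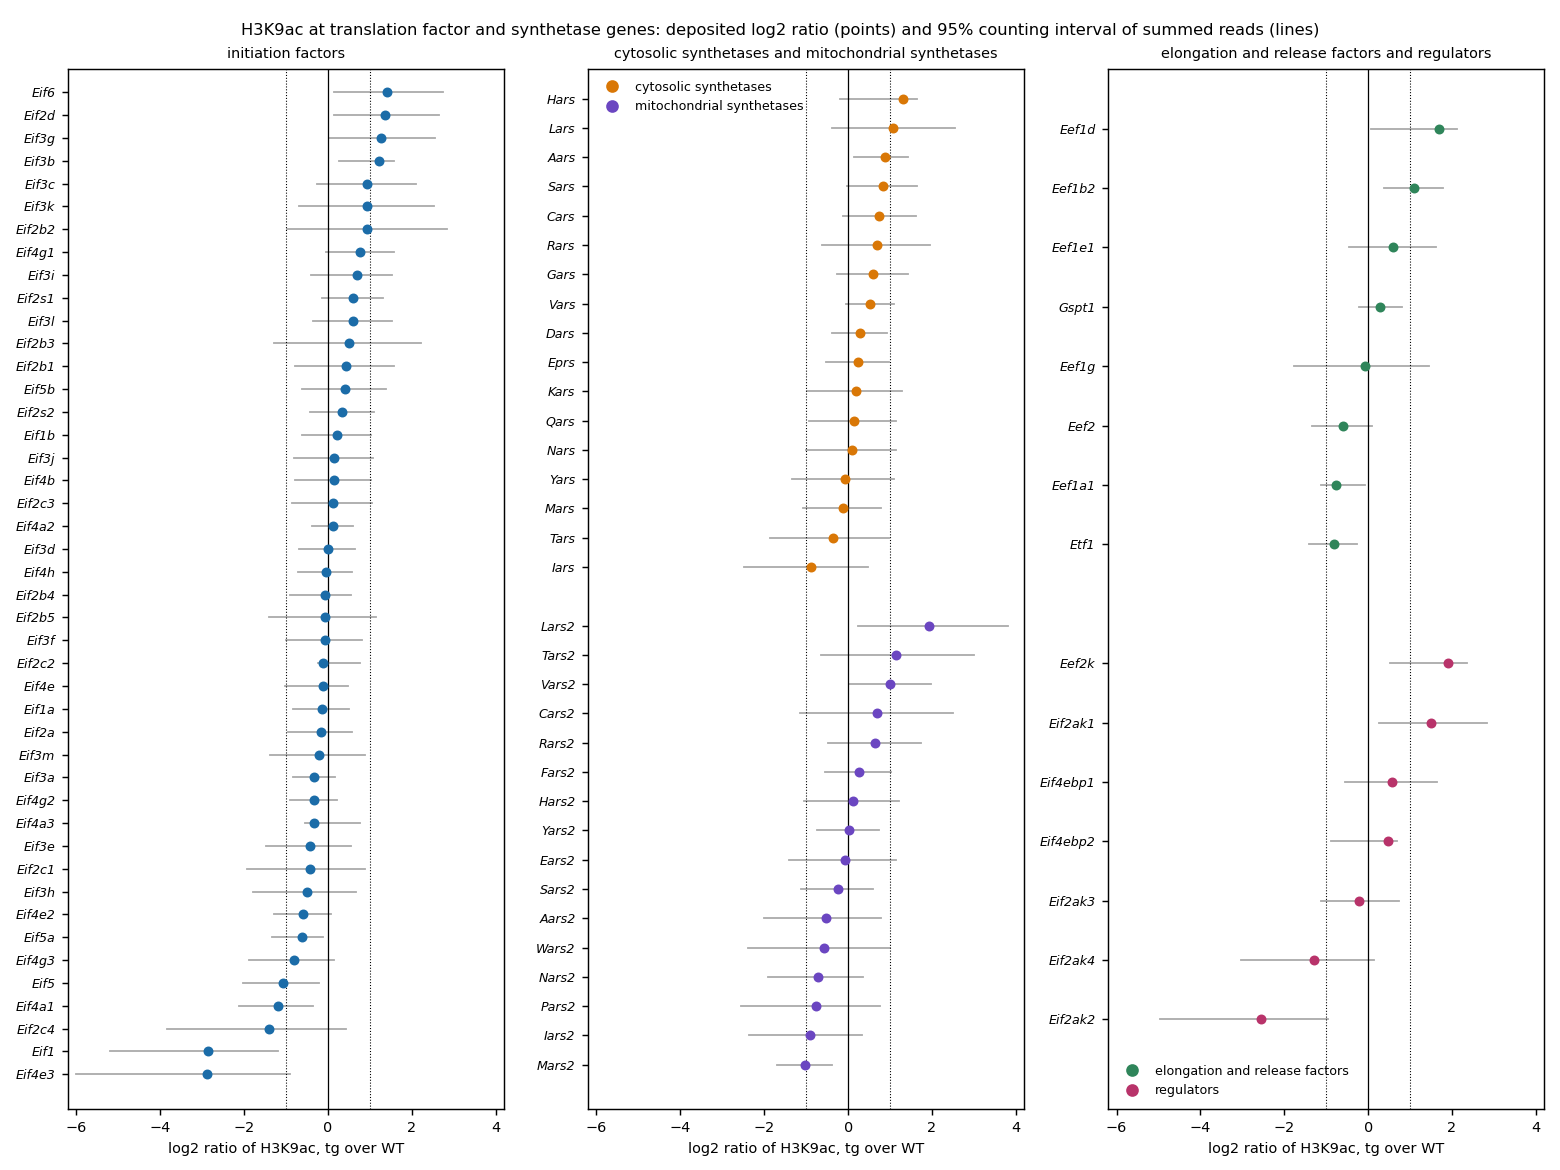
Deposited log2 ratio (points, tg over WT) and 95% counting interval of the summed reads (grey lines) for 92 of the 93 genes by role, with dotted lines at 2-fold. For genes with several probes the point need not lie at the centre of its line. Most of the intervals include 0 (73 over all 93 genes, beside 7072 of 9491 in the whole table).

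The regulators held the widest spread of any role group (SD 1.56 over 7 genes). At least 2-fold higher were 2 genes and lower 2 (28.6% each), beside 16.5% and 15.8% of all genes. The 4 kinases of eIF2 alpha went in different directions. Eif2ak1, the gene of the haem-regulated kinase HRI of red cell precursors, had 6 and 9 reads at its probes in tg and 4 and 6 in WT and was 2.84-fold higher (1.19 to 7.06). Eif2ak2, the gene of the interferon-induced, double-stranded RNA sensor PKR, had 1 and 2 reads in tg and 10 and 25 in WT and was 6.17-fold lower (1.94 to 31.3). Every WT probe of Eif2ak2 held more reads than either tg probe. Eif2ak4, of the amino acid sensor GCN2, had 5 reads in tg and 23 in WT (2.43-fold lower, 0.904 to 8.19), so its interval includes 1. Eif2ak3, of the endoplasmic reticulum sensor PERK, had 16 and 34 reads and a ratio of 0.890 (0.459 to 1.66). The intervals of Eif2ak1 and Eif2ak2 do not overlap.

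Beside the value of Eif2ak1, 12 of 13 erythroid markers were at least 2-fold higher in the same tg library. Beside that of Eif2ak2, 4 of 4 neutrophil markers were lower. Of the 5 monocyte markers counted, 2 were lower and 1 was higher, with a median log2 ratio of 0.60. Sfpi1, left out of that count and median, was lower too (-2.26). The part of these marker differences in the kinase values was not tested. The promoter of Eif2ak2 (GRCm38.p6, chr17:78882523-78882822, minus strand) is shown because this gene had the lowest ratio of the regulators. Capitals mark a pair of GAAA repeats with 2 bases between them, the core of the interferon-stimulated response element, which begins 18 bases after the annotated start. This motif was chosen after the values were seen. On either strand it occurs in 4 of the 70 promoters of the set with a RefSeq entry (5.71%), the others being Eif2s1, Eif3a and Qars, in 3.17% of those of the whole table and in 3.44% of all 32851 RefSeq promoters of the same length.
Eif2ak2: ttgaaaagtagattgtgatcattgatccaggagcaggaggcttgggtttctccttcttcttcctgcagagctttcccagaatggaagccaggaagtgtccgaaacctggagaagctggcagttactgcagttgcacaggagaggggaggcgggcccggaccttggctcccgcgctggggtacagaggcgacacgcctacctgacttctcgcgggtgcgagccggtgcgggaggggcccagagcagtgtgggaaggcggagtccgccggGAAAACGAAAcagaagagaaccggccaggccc

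Eef2k, the gene of the kinase that brakes elongation by phosphorylating eEF2, held 6, 8 and 13 reads at its 3 probes in tg and 1, 9 and 9 in WT. It was 2.69-fold higher by summed reads (1.44 to 5.11), with a deposited log2 ratio of 1.90. The eIF4E-binding protein genes, whose products sequester the cap-binding protein when mTORC1 is inactive, were within 2-fold. Eif4ebp1 had 14 reads in tg and 18 in WT (log2 ratio 0.56), and Eif4ebp2 22 and 44 (0.46 by the deposited values and a ratio of 0.946 by summed reads, 0.540 to 1.61).

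Elongation and release factor genes had 2 of 8 members (25%) at least 2-fold higher and 0 lower, beside 16.5% and 15.8% of all genes. Yet the intervals of 2 others lay below 1, as did 12.7% over all genes. The 8 include Eef1e1, placed here by its symbol, with a log2 ratio of 0.60. Higher were Eef1b2 and Eef1d, which encode exchange factors that reload eEF1A with GTP. Eef1b2 (ENSMUSG00000025967, chromosome 1, 63176825 to 63180486) held 38 reads in tg and 34 in WT and was 2.11-fold higher (1.30 to 3.46). Eef1d had 8 and 11 reads at its probes in tg and 2 and 15 in WT. Its summed reads were 2.11-fold higher (1.04 to 4.33), and its deposited log2 ratio of 1.70 gives the weaker probe equal weight. Eef1g, the third gene of this subcomplex, had 6 and 12 reads and a ratio of 0.946 (0.291 to 2.72).

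Eef1a1, the gene of the abundant tRNA carrier eEF1A, was on the other side, with 5 and 39 reads at its probes in tg and 19 and 106 in WT, a ratio of 0.666 (0.461 to 0.946). Eef2, of the translocase, had 24 and 69 reads and was 1.52-fold lower, with an interval that includes 1 (0.943 to 2.53). The release factor gene Etf1 (eRF1), with 35 and 117 reads, was 1.77-fold lower (1.20 to 2.66). Its partner Gspt1 (eRF3a), with 55 and 85 reads, had a ratio of 1.22 (0.856 to 1.74), with the same values as the neighbouring microRNA gene Mir1945. Both are among the 6 best covered of the 93 genes. Their intervals do not overlap.

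The probe of Eef1b2 has the same values as that of the respiratory chain gene Ndufs1, whose annotation ends at 63176822, next to the first base of Eef1b2, so the difference cannot be given to either gene alone. The promoter of Eef1b2 (GRCm38.p6, chr1:63176581-63176880, plus strand) is shown for this reason with an ETS site, CCGGAAG, in capitals. It begins 1 base after the annotated start.
Eef1b2: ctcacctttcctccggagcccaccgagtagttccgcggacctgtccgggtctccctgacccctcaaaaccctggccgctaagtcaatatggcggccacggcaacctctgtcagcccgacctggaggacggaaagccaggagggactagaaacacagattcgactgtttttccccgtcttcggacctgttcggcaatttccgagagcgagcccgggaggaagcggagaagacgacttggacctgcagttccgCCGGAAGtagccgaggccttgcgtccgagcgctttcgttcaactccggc

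**Figure D3:**
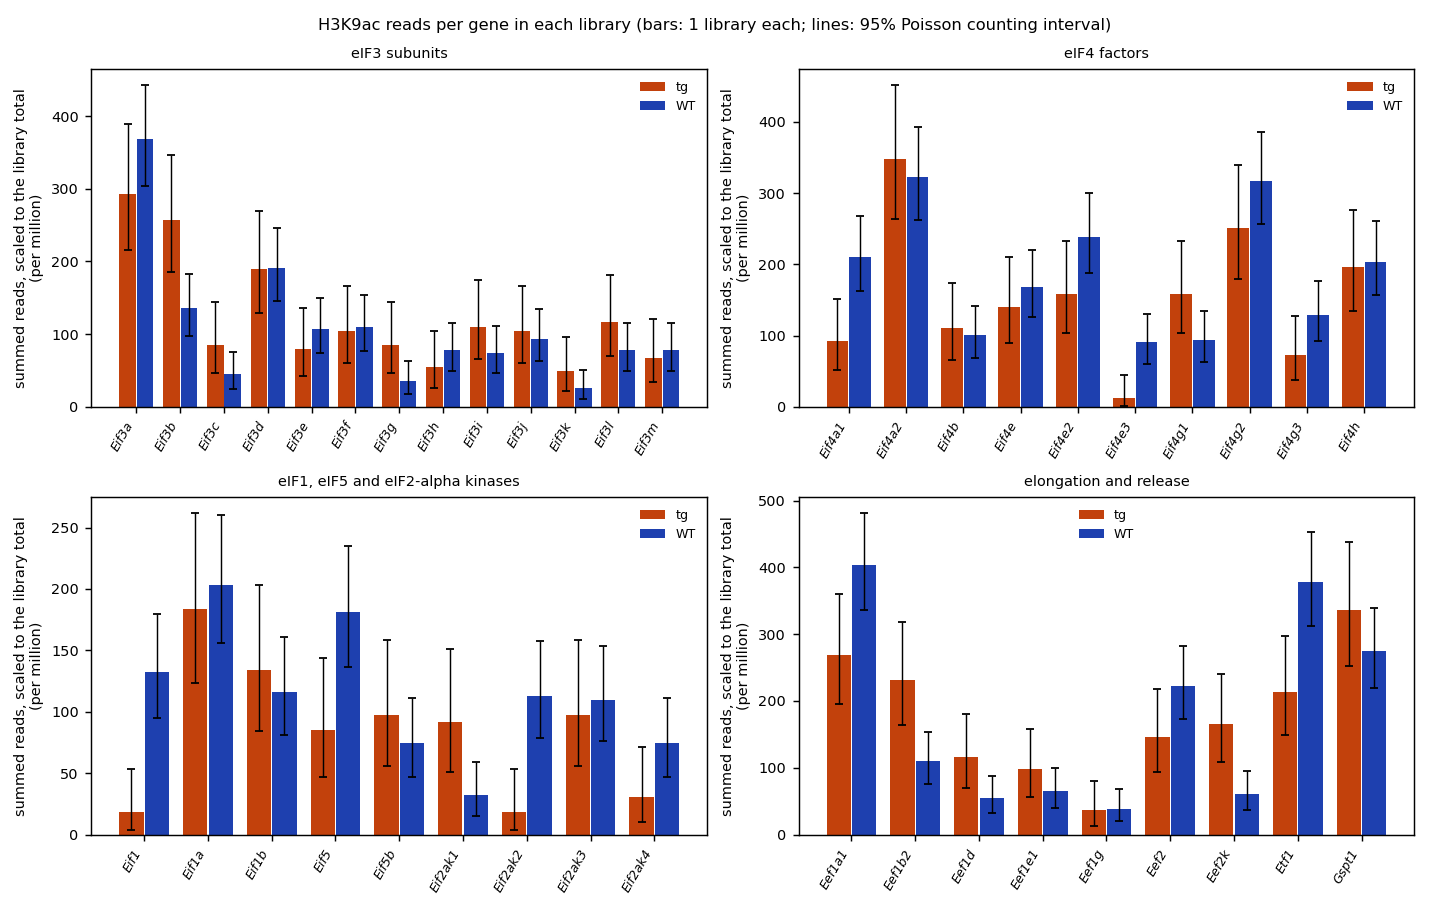
Summed reads per gene scaled to a library of 1000000 reads in the tg library (left bar) and the WT library (right bar), with 95% Poisson counting intervals, for eIF3 subunits, eIF4 factors, start site factors with the eIF2 alpha kinases, and elongation and release factors. By ratio, the bars of Eif1 (18.3 and 132), Eif4e3 (12.2 and 90.4) and Eif2ak2 (18.3 and 113) differ most. Those of Eif3d (189 and 191) and Eif4h (195 and 203) are level.

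Of the 17 cytosolic synthetase genes 16 had an interval that includes 1, as had 7072 of 9491 over all genes. Their median reads were 16 in tg and 24 in WT, so the intervals are wide. The median log2 ratio of the 17 genes was 0.28, and 13 of the 17 (76.5%) had a ratio above 0, beside 51.8% of all genes. At least 2-fold higher were 2 (11.8%, beside 16.5% of all genes), Hars and Lars, and 0 were lower. Only Aars, for alanine, had an interval above 1. It held 21 reads at each probe in tg and 15 and 31 in WT, a ratio of 1.73 (1.11 to 2.68). Vars, for valine and the best covered of these genes, had 48 and 63 reads (1.44, 0.969 to 2.13), and Dars, for aspartate, 34 and 53 (1.21, 0.765 to 1.90). The counts of Vars also occur at its neighbour D17H6S56E-5. At the lower end Iars, for isoleucine, had 6 and 21 reads (log2 ratio -0.89).

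Hars, for histidine, had 9 and 12 reads at its probes in tg and 3 and 21 in WT, and it was 2-fold higher by the deposited log2 ratio (1.31) but not by summed reads (1.66, 0.876 to 3.10). The counts 12 and 21 are also those of the single probe of Hars2, its mitochondrial counterpart, whose gene overlaps it on chromosome 18. Lars, for leucine, had 10 and 9 reads (2.10, 0.767 to 5.85). The interval includes 1 for both genes. The multi-synthetase complex joins 8 cytosolic synthetases of this set with scaffold proteins, among them that encoded by Eef1e1. Of these 9 genes 1 was beyond 2-fold (Lars), beside 32.3% of all genes. All 9 intervals include 1, as do 7072 of 9491 over all genes. The bifunctional Eprs, for glutamate and proline, had 26 and 42 reads (log2 ratio 0.23).

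The 17 mitochondrial synthetase genes, encoded in the nucleus and imported, were centred at equality (median log2 ratio 0.01). At least 2-fold higher were 2 genes (11.8%) and lower 1 (5.88%), beside 16.5% and 15.8% of all genes. Lars2 was 3.78-fold higher on 10 reads in tg and 5 in WT (1.18 to 14.1). Tars2, for threonine, had 7 and 6 reads, and its interval includes 1 (2.21, 0.635 to 7.95). Mars2 (ENSMUSG00000046994, chromosome 1, 55237177 to 55240058), for methionine and the best covered of this group, held 26 and 100 reads and was 2.03-fold lower (1.31 to 3.26). Yars2, for tyrosine, had 25 and 47 reads and a ratio of 1.01 (0.593 to 1.67). Vars2 stood just inside 2-fold at 1.99 (1.01 to 3.94), on 20 and 19 reads.

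For 14 amino acids the cytosolic and the mitochondrial gene could be set side by side, Eprs being paired with Ears2. The cytosolic log2 ratio was above the mitochondrial one in 9 pairs and below it in 5, with a median difference of 0.04 and a range of -1.50 to 1.40. The widest pairs were Aars (0.88) with Aars2 (-0.52, on 7 and 19 reads) and Tars (-0.36) with Tars2 (1.14). Iars and Iars2 lay together on the lower side (-0.89 and -0.92), and Lars and Lars2 on the higher (1.07 and 1.92). Within each of the 14 pairs the intervals overlapped.

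**Figure D4:**
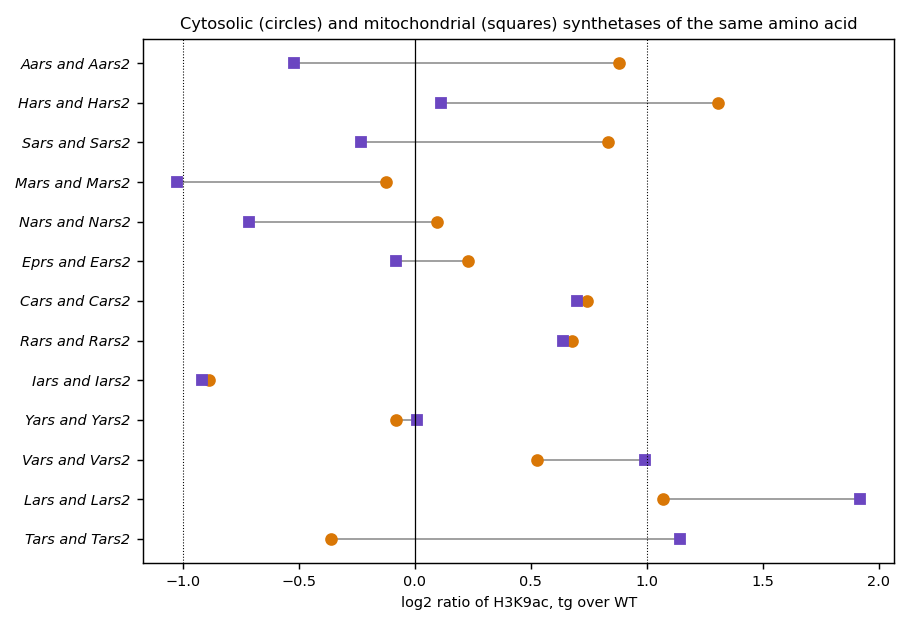
Log2 ratio of H3K9ac (tg over WT) for the cytosolic (circles) and mitochondrial (squares) synthetase gene of the same amino acid in 13 of the 14 pairs, ordered by their difference, with dotted lines at 2-fold. Aars and Aars2 are the widest pair with the cytosolic gene higher (0.88 and -0.52), and Tars and Tars2 the widest with the mitochondrial gene higher (-0.36 and 1.14).

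Sequence features of the promoters were described for the 70 of the 93 genes with a matching RefSeq entry. Their median GC content was 60.5%, beside 61.3% for the 7130 genes of the whole table with an entry, and the observed to expected CpG ratio was 0.815 beside 0.809. The E-box CACGTG occurred in 13 of the 70 (18.6%), beside 10.4% of the table and 7.15% of all 32851 RefSeq promoters, and the ETS site CCGGAAG in 22 (31.4%), beside 22.2% and 8.86%. The GATA site AGATAA occurred in 3 (4.29%), beside 5.71% and 11.2%. All motifs were searched on both strands.

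The letters TGATGCAA, the core of the element through which ATF4 with C/EBP factors answers amino acid shortage, occurred in 4 of the 70, all of them among the 11 cytosolic synthetase promoters with an entry (36.4%), beside 0.505% of the table and 0.895% of all RefSeq promoters. The 4 stretches are shown on the strand of each gene with the match in capitals and up to 40 bases on either side, from Aars (chr8:111033690-111033777), Iars (chr13:49682097-49682179), Tars (chr15:11399626-11399713) and Yars (chr4:129189866-129189952), all GRCm38.p6. Aars, Iars and Yars lie on the plus strand and Tars on the minus strand, and the match in Aars, Iars and Tars reads as the reverse complement.
Aars: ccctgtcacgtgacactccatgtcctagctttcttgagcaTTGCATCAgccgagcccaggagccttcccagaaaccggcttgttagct
Iars: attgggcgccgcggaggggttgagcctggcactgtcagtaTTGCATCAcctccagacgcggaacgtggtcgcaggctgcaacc
Tars: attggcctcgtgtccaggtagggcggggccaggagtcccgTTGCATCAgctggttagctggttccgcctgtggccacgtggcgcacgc
Yars: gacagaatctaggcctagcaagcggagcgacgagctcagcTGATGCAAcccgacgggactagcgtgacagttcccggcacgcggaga
The log2 ratios of H3K9ac at these 4 genes were 0.88 for Aars, -0.08 for Yars, -0.36 for Tars and -0.89 for Iars. Only the interval of Aars excludes 1. Those of Yars (0.395 to 2.12), Tars (0.273 to 1.98) and Iars (0.178 to 1.38) include it. Whether the 4 genes share a direction cannot be told from these reads. Atf4 itself held 37 reads in tg and 107 in WT and was 1.53-fold lower (1.04 to 2.29).

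Several of the 93 genes shared their measurement with a neighbour. All values were the same as those of a gene within 100000 bp for 11 of them, among these Sars2 with the mitochondrial ribosomal protein gene Mrps12, Rars2 with the replication gene Orc3, Eif2b1 with the general transcription factor gene Gtf2h3, and Fars2 with Lyrm4. In these pairs the annotated genes lie directly beside each other. Further genes had 1 probe with the same counts as a gene next to them, such as Vars2 with Gtf2h4 (20 reads in tg and 19 in WT) and Kars with Terf2ip (12 and 20). Others were Vars with D17H6S56E-5 (48 and 63), Eif2s2 with the gene a (26 and 39) and Ears2 with Ubfd1 (9 and 18). Each of these members has a single probe, so its whole measurement may be shared.

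Genes that act beside these factors were described from 5 lists. Over all genes of the table, 16.5% were at least 2-fold higher and 15.8% lower. Of 9 mitochondrial translation factor genes, 2 were at least 2-fold higher, 0 lower, and the median log2 ratio was 0.71. The higher ones were Mtrf1, of a release factor of the family (17 and 15 reads, 2.14, 1.01 to 4.61), and Mtfmt, which formylates the initiator tRNA (8 and 6 reads, 2.52, 0.767 to 8.82). Of 13 synthetase partners and tRNA charging genes, 3 were higher and 1 was lower (median 0.16). Farsb, the beta subunit of the cytosolic phenylalanine enzyme whose symbol the rule leaves out, was 2.10-fold higher on 20 and 18 reads (1.06 to 4.21), whereas the alpha subunit Farsa had 10 and 16 (1.18, 0.480 to 2.77). Gatc, of the mitochondrial glutamine pathway, was 3.44-fold lower on 4 and 26 reads (1.19 to 13.5).

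The genes in the list of the stress response to amino acid or haem shortage act before or after the eIF2 alpha kinases. Of these 12 genes 2 were higher and 2 lower (16.7% each, median 0.36), beside 16.5% and 15.8% of all genes. Ppp1r15a, whose product GADD34 removes the phosphate from eIF2 alpha, held 60 reads in tg and 50 in WT and was 2.27-fold higher (1.53 to 3.37), with the same values as its neighbour Plekha4. Nupr1 had 12 reads in tg and 1 in WT (22.7, 3.36 to 970). Lower were Atf3 (0 reads in tg and 9 in WT) and Cebpb (4 and 39 reads, 5.15-fold lower, 1.86 to 19.9). The 9 reads of Atf3 are the lowest sum of any 1-probe gene, so it has a row through WT alone. Of 12 mTORC1 and cap-binding control genes, 1 was higher and 1 lower (median -0.31). Larp1, which represses mRNAs of the translation machinery, had 21 and 87 reads and was 2.19-fold lower (1.35 to 3.72). Of 17 poly(A) binding, rescue and recycling genes, 3 were higher and 1 lower (median 0.30). Pelo, which rescues stalled ribosomes, was 2.19-fold higher on 29 and 25 reads (1.24 to 3.91), and Abce1, which splits the ribosome after termination, was 2.11-fold lower on 11 and 44 (1.07 to 4.54).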

How the data were processed

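Leukaemic bone marrow was fixed in 1% formaldehyde and sonicated for 20 min, per the labels' protocols. The submitters' processing notes name CASAVA 1.8.2, BWA, SAMtools, FastQC, mm10 and GRCm38. The sources used here do not say how probes were placed. Per the file headers, the authors deposited log2 values averaged over a gene's probes, and another value, the number of probes. Taken out of the log, 100% of the 7423 1-probe genes gave whole read numbers (tolerance 0.01 read), 0 being entered as 0.9, and genes with up to 4 probes were solved likewise (9491 of 9615 in all). The solver was tested on simulated data. Python 3.11.15, SciPy 1.17.1 and pandas 2.3.3 were used.

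Samples were grouped by title. With 1 library per group no test was run: 2-fold is a threshold of size, and intervals are conditional Clopper-Pearson intervals (95%) on reads that carry no molecular identifiers. A gene at 0 could hold up to 18.3 scaled reads in tg or 9.69 in WT (3 reads). Named by rule were 20 genes: those beyond 2-fold at or above the median level, the 6 best covered, the 4 nearest equality in the upper quartile and the 2 best covered per role. Others were named by complex or amino acid, or after their values were seen. The members, lists and motifs were chosen with earlier results of these data known. Promoters are RefSeq entries (GRCm38.p6) whose start lies within 5000 bp of the gene's end in the table. 1 gene is counted but not reported here by name. Alternatives covered scaling, summed reads, level, probe number, fold size and membership.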

Additional observations from a re-analysis of the deposited data

How the results depend on the processing

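No paired analysis was possible because each group had 1 library. Counts of genes beyond 2-fold were within 1.5 times of the 12 higher and 8 lower under median centring over all genes, an added scaled read, summed reads, and without genes that share all values with a neighbour, regulators or Argonaute genes, the last an alternative chosen after seeing the data. Summed reads gave 10 higher and 8 lower, since Eif3b and Hars moved under 2-fold. Restricting to genes at or above the median level gave 3 higher and 4 lower of 58, and genes with 1 probe gave 7 higher and 7 lower of 74. At 1.5-fold, 28 were higher and 18 lower, beside 28.7% and 25.4% of all genes. The median log2 ratio of all 93 genes lay between 0.07 and 0.14 under all 8 alternatives. That of the 7 regulators was 0.46 by deposited values and -0.081 by summed reads, because averaging log2 values gives weak probes the same weight as tall ones. That of elongation and release factors was -0.16 for the 6 genes at or above the median level, against 0.11 for all 8. For initiation factors it was between -0.11 and 0.05, and the sign is not settled. Depth limits most single genes: 73 of 93 intervals include equality, beside 7072 of 9491 over all genes.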

Other observations

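The X-linked initiation factor genes, which the selection leaves out, were within 2-fold. Eif2s3x, of the gamma subunit of eIF2, had 14 reads in tg and 20 in WT (1.32, 0.619 to 2.76), and Eif1ax had 19 and 28 (1.28, 0.677 to 2.38). The part of the animals' sex in these values was not tested. Eefsec, the elongation factor for selenocysteine, had 7 and 20 reads (0.662, 0.237 to 1.63), and Sepsecs, which makes selenocysteine on its tRNA, 12 and 20 (1.13, 0.506 to 2.44).

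Within several families of paralogues or partners, the counting intervals of 2 genes did not overlap. Examples are Eif1 with Eif1b, Eif2ak1 with Eif2ak2, Etf1 with Gspt1, Eif3a with Eif3b, and Eef1a1 with Eef1b2, and the list is not complete. These pairs were picked after the values were seen, and without replicate libraries it is not known how often such pairs would differ between animals of 1 genotype.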
